A study of Oryza sativa with 12 samples.

Results

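The heat response of wild-type (WT) rice was described from 6 of the 12 libraries of an RNA-Seq study of thermotolerance. These were the 3 WT libraries from seedlings transferred to 45 °C and the 3 WT libraries from seedlings kept at 29 °C. WT seedlings of the cultivar Nipponbare were grown in nutrient solution at 29 °C, and 8 days after germination they were heat-stressed or kept as controls for 3 h before the seedlings were collected. No allele or transgene distinguished the 2 WT groups, and the other 6 libraries came from ntl3-1, a gene-edited line of the NAC transcription factor gene OsNTL3. The labels state genotype and control or heat treatment, while the temperatures and the duration come from the methods of the study. The sources used here do not say how many plants went into a replicate, so the p-values measure a spread between libraries, which may be partly technical. The standard error (SE) and limma p-value of each gene take this spread from all 12 libraries, those of ntl3-1 included.

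Heat unfolds proteins, and plant cells answer within minutes to hours through heat shock factors (HSFs), transcription factors that bind heat shock elements in the promoters of chaperone genes. Small heat shock proteins of the HSP20 (alpha crystallin) family hold unfolding proteins in solution without using ATP. HSP70 (DnaK in bacteria) with its DnaJ and GrpE partners, HSP90 and the disaggregase ClpB (HSP100) then refold or recover them with ATP, and the endoplasmic reticulum (ER) runs a separate unfolded protein response for secreted and membrane proteins.

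Levels are FPKM, read fragments corrected for transcript length and for the reads mapped in a library, a scale on which genes can be compared per length. FPKM summed to 610880 to 679693 in the libraries at 29 °C and to 1153023 to 1369236 at 45 °C, and 19751 to 20318 genes were above 1 FPKM in each library. The absolute depth is unknown. The relative weight of a single read was taken as the most frequent ratio to control 1 among genes between 0 and 0.3 FPKM in both libraries. At 45 °C this ratio was 1.70 to 2.04, so low levels at 45 °C rest on fewer reads. For the 17004 genes that exceeded 1 FPKM in each of the 12 libraries, the log2 fold change (log2FC) had a median of 0.03, so the deposited scale sets the typical gene near the same level at both temperatures. Whether the authors scaled the libraries to each other beyond this is not given in the sources used here, and such scaling would also bring this median near 0. Replicates correlated with r from 0.967 to 0.98 within a temperature and 0.866 to 0.899 between temperatures. The median SD of a gene on the log2 scale was 0.123 at 29 °C and 0.209 at 45 °C (n = 3 libraries each, 17418 genes).

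Of 31681 genes tested with limma on log2(FPKM + 0.1), 4190 (13.2%) were up-regulated at 45 °C and 3730 (11.8%) were down-regulated (adjusted p no higher than 0.05, log2FC of 1 or more in size). Without any test, the 3 libraries at 45 °C all lay above the 3 at 29 °C for 26.7% of the genes and all below for 28.3%. These shares are the background for counts over all genes tested. The annotated classes have another background, which is given with them. When each library was instead rescaled to an equal FPKM sum, the log2FC of all genes shifted by -0.77 in the median and the calls became 2073 up and 12654 down, so that 14.1% of the calls were up-regulations in place of 52.9%. Directions below are on the deposited scale, that is, relative to the typical gene.

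A small set of transcripts dominated the heat-stressed seedlings. The 20 most abundant genes of a library held 15.4%, 16.8% and 18.3% of its summed FPKM at 29 °C and 25.2%, 26.3% and 28.0% at 45 °C. The mean share was 16.8% ± 1.45 (SD, n = 3) at 29 °C and 26.5% ± 1.41 (n = 3) at 45 °C, without overlap between the groups (exact two-sided permutation test, p = 0.1, the smallest that 3 against 3 libraries can give). In the controls 481 to 632 genes made up 50% of the summed FPKM, and in the heat-stressed libraries 131 to 162 genes did. Genes at 10000 FPKM or more numbered 1, 2 and 2 in the controls and 12, 11 and 13 after heat stress.

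**Figure D1:**
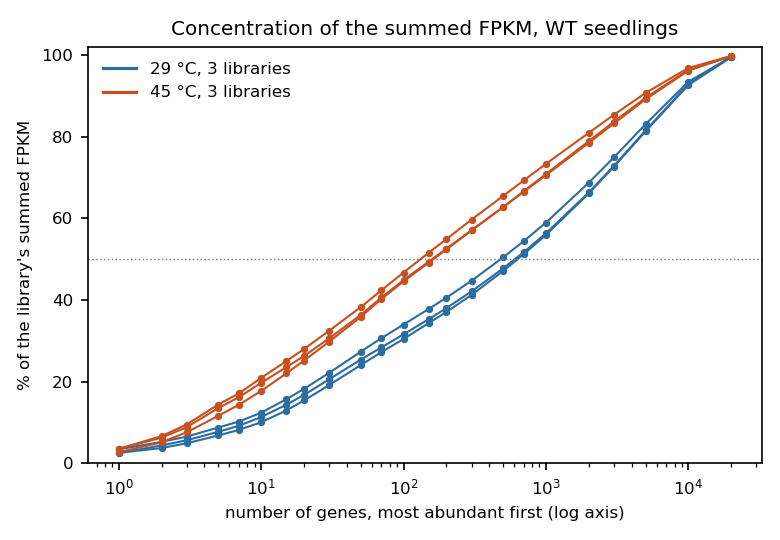
Cumulative share of the summed FPKM (%) against the number of genes taken from the most abundant downwards (log axis), 1 line for each WT library, blue at 29 °C and orange at 45 °C; the dotted line is at 50%. The 3 lines at 45 °C lie above the 3 at 29 °C from the third gene on, and cross 50% at 131 to 162 genes instead of 481 to 632.

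Only 2 of the 15 most abundant loci at 45 °C were also among the 15 most abundant at 29 °C, and 13 of the 15 were up-regulated. In ntl3-1 at 45 °C, 13 of these 15 loci were again in the first 15. Rank 1 belonged to LOC_Os01g04370 on chromosome 1, which has no description in the annotation used here and lies between LOC_Os01g04360 and LOC_Os01g04380, both annotated as hsp20/alpha crystallin proteins. It measured 4.76, 5.25 and 5.62 FPKM at 29 °C and 32869.7, 41177 and 48542 FPKM at 45 °C. The log2FC was 12.89 (SE 0.63, limma adjusted p = 8.63e-08), and the locus moved from rank 13207 to rank 1. LOC_Os03g14180, an annotated hsp20 protein on chromosome 3, measured 2.56, 2.10 and 2.94 FPKM at 29 °C and 20548, 26058 and 29665 FPKM at 45 °C. Its log2FC of 13.23 (SE 0.64, limma adjusted p = 7.79e-08) was the largest among the up-regulated genes with a mean of at least 20 FPKM at 45 °C.

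Further members of the first 15 carried the hsp20 annotation. LOC_Os03g16040 (log2FC 10.09, SE 0.24), LOC_Os01g04380 (log2FC 11.73, SE 0.47) and LOC_Os01g04360 (log2FC 12.82, SE 0.58) each lay between 11672 and 18934 FPKM in every heat-stressed library and between 1.47 and 16.7 FPKM in every control. The loci LOC_Os03g15960, LOC_Os03g16020, LOC_Os03g16030, LOC_Os04g36750 and LOC_Os01g08860, which have no description in the sources used here, moved in the same way, with 8483 to 38920.1 FPKM at 45 °C against 1.27 to 30.03 FPKM at 29 °C. Of the first 20 at 45 °C, 6 were also among the first 20 at 29 °C. LOC_Os06g13680, rank 1 at 29 °C and rank 2 at 45 °C, measured 15784, 15347 and 23382 FPKM in the controls and 29658, 29475 and 42897 FPKM after heat stress. The groups did not overlap, but the change was not called (log2FC 0.91, SE 0.96, limma adjusted p = 0.471), and its sign turns under a rescaling to an equal sum (-0.06) and under quantile normalization (-0.46). Its SE includes the spread between the ntl3-1 libraries. LOC_Os12g43600 went from 2884 to 3798 FPKM in the controls to 15844 to 18271 FPKM after heat stress and was up-regulated (log2FC 2.36, SE 0.47, limma adjusted p = 0.00185), a call that quantile normalization ends (log2FC 0.78).

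**Figure D2:**
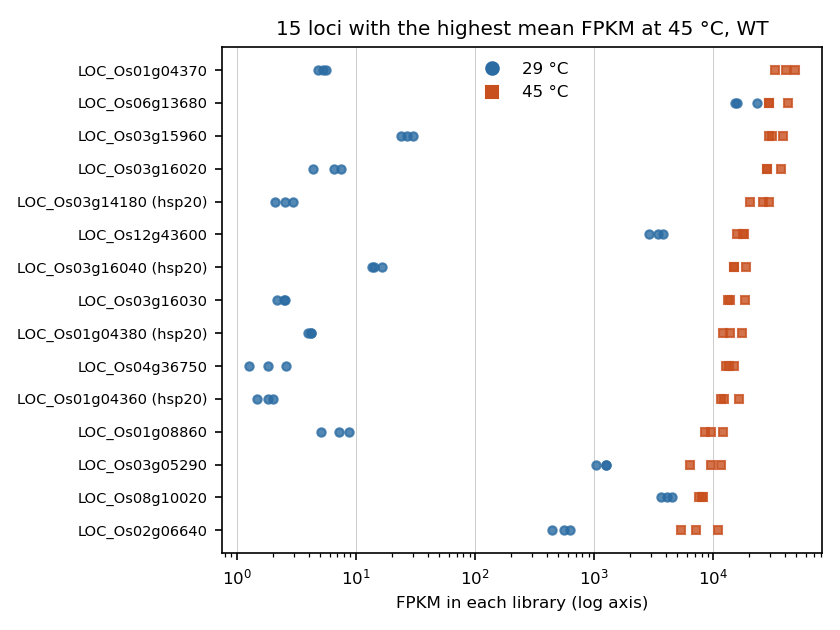
FPKM in each WT library (log axis) of the 15 loci with the highest mean FPKM at 45 °C, blue circles at 29 °C and orange squares at 45 °C, 3 libraries each; loci annotated as hsp20/alpha crystallin proteins are marked. For 10 of the loci the controls lie at 30.03 FPKM or less and the heat-stressed libraries at 8483 FPKM or more, while LOC_Os06g13680 and LOC_Os08g10020 were not called.

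Most of the loci that were abundant in the control seedlings were not called, but their ranks and their share fell behind those of the induced transcripts. Of the 100 with the highest mean at 29 °C, 72 were not called, 17 were down-regulated and 11 were up-regulated, with a median log2FC of -0.22 against -0.04 over all genes tested. At 45 °C 45 of them were still among the first 100. Their share of the summed FPKM was 30.4% to 34.0% at 29 °C and 17.3% to 21.1% at 45 °C. Each of the first 10 had a lower rank at 45 °C. On the deposited scale LOC_Os07g25050 was the one among them that was called, moving from rank 2 to rank 78. It measured 7143, 11518 and 12456 FPKM at 29 °C and 1725, 1736 and 2609 FPKM at 45 °C (log2FC -2.34, SE 0.38, limma adjusted p = 0.000513). LOC_Os01g41710, in contrast, measured 6993, 7330.2 and 8584 FPKM at 29 °C and 9040.4, 7130.3 and 5844 FPKM at 45 °C, so that its groups overlapped (log2FC -0.07, SE 0.52), although it was called lower under quantile normalization (-1.69) and the equal sum (-1.05). Another 6 of the first 10 were likewise called lower under both of these scalings and not on the deposited scale, among them LOC_Os08g33820 (log2FC -0.86 as deposited, -2.51 and -1.83) and LOC_Os09g17740 (-0.38 as deposited, -2.03 and -1.35).

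The rise of the summed FPKM lay in the up-regulated genes. The 4190 up-regulated genes summed to 67044 to 76687 FPKM (11.0% to 11.5% of a library) at 29 °C and to 604890 to 830537 FPKM (52.5% to 60.7%) at 45 °C. The 3730 down-regulated genes went from 70472 to 79461 FPKM (11.5% to 12%) to 20179 to 22371 FPKM (1.47% to 1.94%). The 23761 genes that were tested and not called summed to 470063 to 522804 FPKM at 29 °C and 517786 to 552942 FPKM at 45 °C, ranges that overlap. Since the calls and the sums use the same values, these sums describe the response and do not test it.

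**Figure D3:**
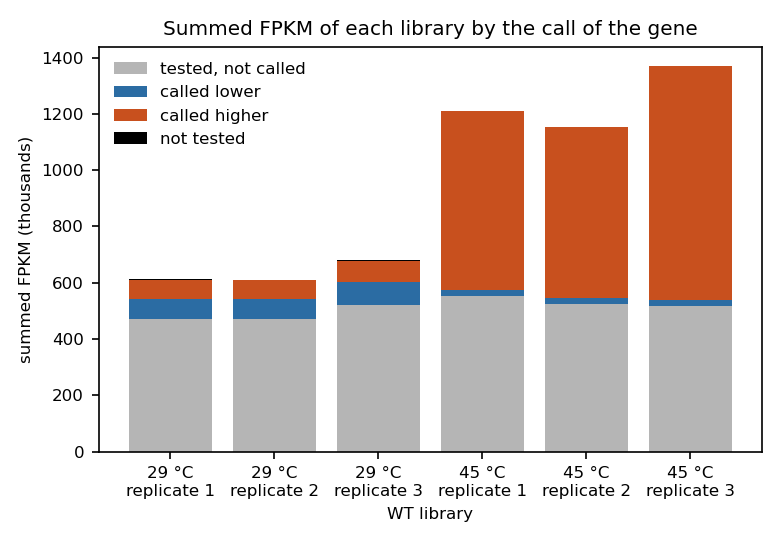
Summed FPKM (in units of 1000) of each WT library, stacked by the call of the gene: grey for genes tested and not called, blue for down-regulated, orange for up-regulated, black (barely visible) for genes not tested. The grey part stays between 470063 and 552942 FPKM in the 6 libraries, and the orange part grows from at most 76687 to at least 604890 FPKM.

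Large increases were far more frequent than large decreases, and most of them were in genes with a low level at 29 °C. A log2FC of at least 5 in size was reached by 347 up-regulated and 50 down-regulated genes, and one of at least 10 by 44 and 1. The falls counted here and below include LOC_Os08g24200 (the 1 of at least 10), LOC_Os09g15365 and LOC_Os01g18450. These were listed at 0 in every heat-stressed library, which can be a failed estimate. A gene can only fall as far as its level allows, and with the constant of 0.1 FPKM a fall of 5 needs a mean of 3.1 FPKM at 29 °C. Among the 15822 genes at or above that level, 69 rose by 5 or more, beside the 50 that fell. For a size of at least 7 the numbers were 4 risen and 7 fallen, where 143 genes had risen in all. The excess of large increases thus lay mostly in genes below these levels, although genes well above them also rose by more than 5, such as HSP81-1 (LOC_Os08g39140, log2FC 6.33) from a mean of 72.5 FPKM.

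**Figure D4:**
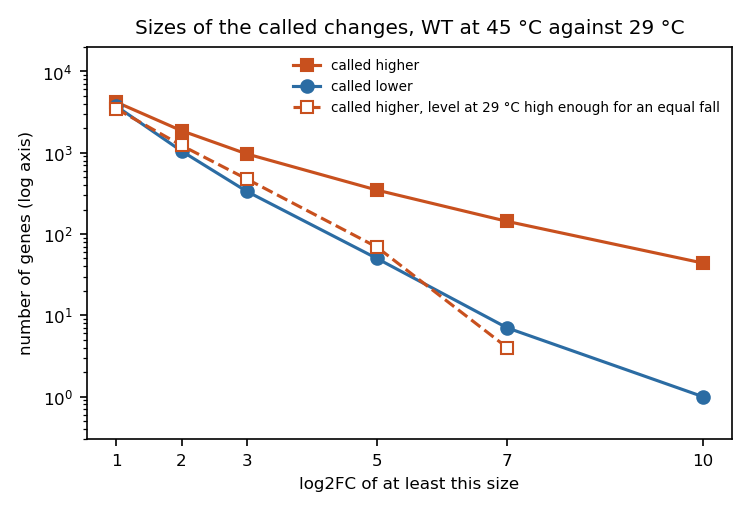
Number of called genes (log axis) whose log2FC is at least the size on the x axis: orange squares up-regulated, blue circles down-regulated, open squares the up-regulated genes whose mean at 29 °C was high enough for a fall of the same size (none at 10, so no point is drawn). The filled orange line stays above the others from a size of 2 on (347 against 50 genes at 5), while the open squares and the blue line run close to each other (69 against 50 at 5).

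Functional classes could be read for 3196 loci, those with a description in the supplement of the study or a name in its text. That supplement lists genes the study called from these same libraries and was shortened here, so the share of a class that was called carries no information and is not independent evidence of its direction. Over all 3196 loci, 58.4% were up-regulated and 34.5% down-regulated here, with a median log2FC of 1.16, and the counts of each class are to be read against these shares. Rescaled to an equal sum, the same loci had 796 calls up and 1183 down, with a median log2FC of 0.23. Rescaling to an equal sum kept the sign of the median in 34 of the 35 classes and, relative to the shift of all genes, in all 35. Quantile normalization kept it in 33, the exceptions being aquaporins and photosynthesis.

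**Figure D5:**
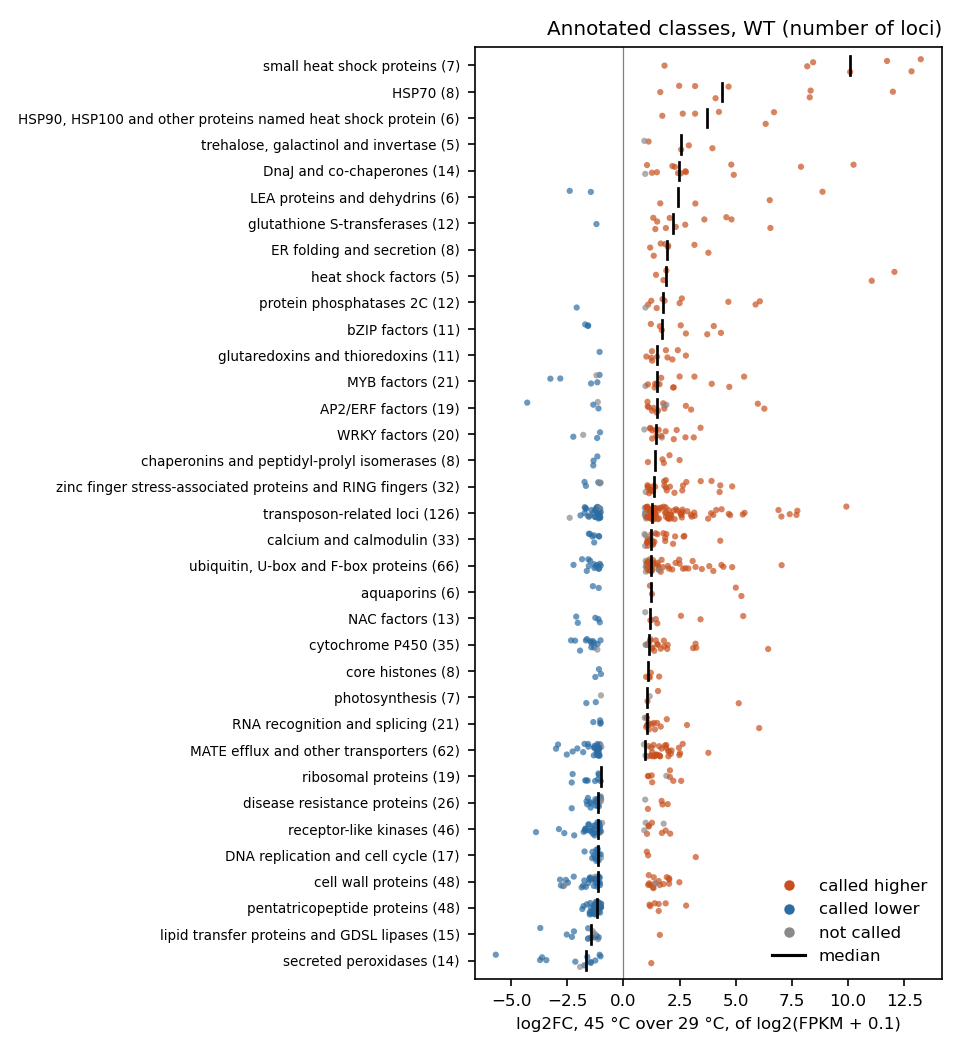
log2FC of each annotated locus, 45 °C over 29 °C in WT, in 35 classes ordered by their median (black bars), with the number of loci in parentheses; orange up-regulated, blue down-regulated, grey not called. The empty band around 0 arises because the descriptions cover genes that had been selected as changed. The small heat shock proteins have the highest median (10.09) and the secreted peroxidases the lowest (-1.67).

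Chaperones formed the head of the response. All 7 annotated small heat shock proteins were up-regulated, with a median log2FC of 10.09 and a range from 1.83 to 13.23. Together they held 0.0321% to 0.0350% of the summed FPKM at 29 °C and 5.33% to 6.48% at 45 °C (6.01% ± 0.603, SD, n = 3). LOC_Os02g52150, named as a 22 kDa heat shock protein, measured 5.6, 3.21 and 4.55 FPKM at 29 °C and 1776, 1211 and 1727 FPKM at 45 °C (log2FC 8.44, SE 0.19, limma adjusted p = 1.12e-09). The exception in size was LOC_Os01g04350, singled out after its values were seen, with 164 to 182 FPKM already at 29 °C and 553 to 680.0 FPKM at 45 °C (log2FC 1.83). The annotated chaperone classes together, 43 loci, held 0.333% ± 0.00879 of the summed FPKM at 29 °C and 8.69% ± 0.926 at 45 °C (SD, n = 3, exact two-sided permutation p = 0.1, the smallest possible). These shares leave out chaperone loci without a description, and closely related hsp20 genes can share reads, so the level of a single member is less certain than their sum.

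The ATP-dependent chaperones rose with them. All 8 annotated DnaK (HSP70) loci, which include BiP2 of the ER (LOC_Os03g50250), were up-regulated, with a median log2FC of 4.39. LOC_Os03g16920 measured 0.980, 1.01 and 1.04 FPKM at 29 °C and 3593, 4119 and 6245 FPKM at 45 °C (log2FC 11.99, SE 0.70, limma adjusted p = 3.33e-07). LOC_Os11g47760 measured 611, 476 and 618 FPKM at 29 °C and 3039, 2732 and 3773 FPKM at 45 °C (log2FC 2.48, SE 0.25), so that a member almost absent at 29 °C and one that was abundant there reached levels of the same order. All 6 loci of the class of HSP90, HSP100 and other proteins named heat shock protein were up-regulated (median log2FC 3.72). HSP81-1 (LOC_Os08g39140), an HSP90, measured 68.5, 72.7 and 76.3 FPKM at 29 °C and 5169, 4958 and 7767 FPKM at 45 °C (log2FC 6.33, SE 0.18, limma adjusted p = 2.55e-09). The disaggregase clpB 1 (LOC_Os03g31300) measured 12.95, 14.4 and 13.3 FPKM at 29 °C and 1062, 1285 and 2106 FPKM at 45 °C (log2FC 6.70, SE 0.22).

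Co-chaperones, which deliver substrates to HSP70 and HSP90 or set their ATPase cycle, were up-regulated in 13 of 14 cases (median log2FC 2.49), the remaining DnaJ locus having a log2FC of 0.97. The DnaJ protein LOC_Os05g48810 rose from 6.17 to 6.58 FPKM to 1330.2 to 1955 FPKM (log2FC 7.90, SE 0.13, limma adjusted p = 2.06e-10). The heat shock protein STI (LOC_Os04g45480), a type of protein that links HSP70 to HSP90, rose from 0.502 to 0.660 FPKM to 624 to 1175 FPKM (log2FC 10.24, SE 0.53). LOC_Os08g36150, annotated as an activator of the HSP90 ATPase, had a log2FC of 4.80. Chaperonins and peptidyl-prolyl isomerases, which speed the folding of nascent and imported proteins, had 5 up-regulated and 3 down-regulated members (2 and 3 when rescaled to an equal sum). Their shares of 62.5% and 37.5% were near the 58.4% and 34.5% of all annotated loci. The chaperonin LOC_Os09g26730 measured 63.9 to 74.7 FPKM at 29 °C and 331 to 425 FPKM at 45 °C (log2FC 2.5), while the FKBP-type isomerase LOC_Os09g32526 measured 33.1 to 38.6 and 14.4 to 18.9 FPKM (log2FC -1.16).

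The 5 annotated HSFs were all up-regulated on the deposited scale (3 of 5 with the equal sum) and fell into unlike ranges. LOC_Os06g36930 measured 0.0450, 0.118 and 0.174 FPKM at 29 °C and 1279, 566 and 940.2 FPKM at 45 °C (log2FC 12.06, SE 0.31, limma adjusted p = 1.54e-09). LOC_Os03g53340 measured 0.273, 0.172 and 0.0926 FPKM at 29 °C and 576, 429 and 746 FPKM at 45 °C (log2FC 11.05, SE 0.39). The other 3 stayed below 10 FPKM, with log2FC values from 1.45 to 1.91. LOC_Os06g36930 was the only transcription factor among the 10 largest increases that carried a description.

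Genes of ER folding and secretion were up-regulated in 8 of 8 cases, with a median log2FC of 1.92 (4 of 8, median 0.95, with the equal sum), below those of HSP70 (4.39) and the co-chaperones (2.49). BiP1 (LOC_Os02g02410), the HSP70 of the ER lumen, measured 106, 112 and 100.1 FPKM at 29 °C and 750, 926 and 1234 FPKM at 45 °C (log2FC 3.16, SE 0.17, limma adjusted p = 1.43e-07). The calreticulin LOC_Os01g67054, a calcium-binding lectin chaperone, rose from 99.5 to 119 FPKM to 347 to 576 FPKM (log2FC 1.98, SE 0.25). The BiP paralogues named BiP2 (LOC_Os03g50250) and BiP4 (LOC_Os05g35400) were at most 0.0451 FPKM in every control and reached 36.6 to 52.4 FPKM and 1.84 to 2.85 FPKM. BiP2 is described as a DnaK family protein, so it was counted in the HSP70 class and not among the 8 ER loci. The HSP70 median compared above thus includes an ER chaperone. OsbZIP74 (LOC_Os06g41770), a transcription factor of the unfolded protein response, rose from 14.6 to 16.2 FPKM to 170 to 234 FPKM (log2FC 3.73, SE 0.11, limma adjusted p = 2.93e-09). OsNTL3 itself (LOC_Os01g15640), the membrane-associated NAC factor the study is about, measured 18.3, 21.8 and 20.5 FPKM at 29 °C and 57.5, 66.3 and 87.5 FPKM at 45 °C (log2FC 1.78, SE 0.17, limma adjusted p = 9.77e-06), a call that is lost when the libraries are rescaled to an equal sum (log2FC 0.81).

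Other transcription factor families had calls in both directions, with a share of up-regulated members below the 58.4% of all annotated loci for NAC (46.2%) and somewhat above it for MYB (66.7%), AP2/ERF (68.4%), WRKY (70%) and bZIP factors (72.7%). WRKY factors, known from defence and stress signalling, were up in 14 and down in 3 of 20 cases, with OsWRKY71 (LOC_Os02g08440) at 8.36 to 12.9 FPKM in the controls and 47.4 to 68.4 FPKM after heat stress (log2FC 2.37, SE 0.30). bZIP factors were up in 8 and down in 3 of 11, AP2/ERF factors in 13 and 3 of 19, and MYB factors in 14 and 5 of 21. NAC factors were nearly balanced, with 6 up and 5 down of 13, and LOC_Os05g34830 had the largest log2FC of the class, rising from 1.501 to 2.72 FPKM to 69.4 to 110.0 FPKM (log2FC 5.33, SE 0.26). The most abundant member of these families that fell was the MYB family gene LOC_Os01g74410, with 312, 256 and 304 FPKM at 29 °C and 34.3, 23.8 and 34.2 FPKM at 45 °C (log2FC -3.25, SE 0.18, limma adjusted p = 1.87e-07). LOC_Os07g48630, annotated as ethylene-insensitive 3, a factor of ethylene signalling, rose from 31.5 to 38.2 FPKM to 234 to 337 FPKM (log2FC 2.94). Rescaled to an equal sum, AP2/ERF factors had 4 calls in each direction, NAC factors 3 up and 5 down, WRKY factors 6 up and 4 down, MYB factors 7 up and 6 down, and bZIP factors 5 up and 3 down.

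Protein turnover and redox classes had more members up than down on the deposited scale. Of 66 ubiquitin, U-box and F-box proteins, which mark proteins for degradation, 47 were up-regulated and 14 down-regulated, with a median log2FC of 1.24 close to the 1.16 of all annotated loci, and with the equal sum 18 were up and 14 down. The F-box and kelch protein OsFBK16 (LOC_Os06g39370) rose from 10.2 to 24.8 FPKM to 230.2 to 472 FPKM (log2FC 4.45, SE 0.40). Zinc finger stress-associated and RING finger proteins were up in 25 and down in 4 of 32 cases (10 and 6 with the equal sum). Glutathione S-transferases, which conjugate glutathione to reactive compounds, were up in 11 of 12 (7 with the equal sum), and LOC_Os03g57200 measured 7.02, 5.195 and 6.99 FPKM at 29 °C and 131, 194 and 231 FPKM at 45 °C (log2FC 4.81, SE 0.35). Glutaredoxins and thioredoxins, small thiol reductases, were up in 10 of 11, but in 3 with the equal sum. The peroxidases that are secreted into the cell wall went the other way, with 12 down and 1 up of 14, and LOC_Os07g44590 measured 16.5, 9.09 and 9.998 FPKM at 29 °C and 0.673, 0.963 and 1.38 FPKM at 45 °C (log2FC -3.43, SE 0.36, limma adjusted p = 2.29e-05).

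Among genes of desiccation and sugar protection, a dehydrin was the most abundant after heat stress. The dehydrin LOC_Os02g44870, a hydrophilic protein of the late embryogenesis abundant (LEA) type, measured 48.8, 42.5 and 48.5 FPKM at 29 °C and 3685, 3732 and 5584 FPKM at 45 °C (log2FC 6.51, SE 0.18, limma adjusted p = 2.71e-09). It made up most of the LEA and dehydrin class, whose share of the summed FPKM was 0.0164% to 0.0186% at 29 °C and 0.355% to 0.476% at 45 °C. Of the 6 members 4 were up and 2 down, and the group 3 LEA protein LOC_Os05g46480 had a log2FC of 8.86 (SE 0.50). Trehalose and invertase genes were up in 4 of 5 cases (3 with the equal sum) with means of 10.8 to 238 FPKM at 45 °C, among them the alkaline invertase LOC_Os01g22900, which splits sucrose, at 10.6 to 14.7 FPKM in the controls and 144 to 285 FPKM after heat stress (log2FC 3.96, SE 0.25). Protein phosphatases 2C, a family that includes the negative regulators of abscisic acid signalling, were up in 10 and down in 1 of 12 (6 and 1 with the equal sum), led by LOC_Os06g48300 (log2FC 6.07, SE 0.28).

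Aquaporins, the water channels, had members in both directions, with shares (66.7% up, 33.3% down) near the 58.4% and 34.5% of all annotated loci. LOC_Os01g74450 measured 21.4, 21.1 and 26.7 FPKM at 29 °C and 688, 732 and 792 FPKM at 45 °C (log2FC 5.0, SE 0.18, limma adjusted p = 9.61e-09). LOC_Os05g14240 measured 502, 491 and 550.4 FPKM at 29 °C and 232, 267 and 223 FPKM at 45 °C (log2FC -1.10, SE 0.11, limma adjusted p = 2.15e-05). In all 4 were up and 2 down (2 and 2 with the equal sum), their joint share stayed at 0.265% to 0.307% of the summed FPKM in the 6 libraries, and the median of the class turns from 1.23 to -0.09 under quantile normalization. Calcium and calmodulin genes were up in 23 and down in 7 of 33 (7 and 7 with the equal sum), and the calmodulin-related sensor LOC_Os03g53200 rose from 7.69 to 9.38 FPKM to 134 to 288 FPKM (log2FC 4.31, SE 0.29).

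Classes with more down- than up-regulated members included pentatricopeptide proteins, receptor-like kinases, disease resistance proteins, lipid transfer proteins and replication genes. At 29 °C the 48 pentatricopeptide loci summed to only 54.4 to 61.1 FPKM, the 46 kinases to 105.4 to 117.4 and the 26 resistance loci to 37.1 to 44.8. Over all genes tested, a constant of 1 FPKM in place of 0.1 cut the down-regulated genes from 3730 to 1742. Of the 70 class counts (up and down in each class), 29 moved by more than 1.5 times with that constant. The counts below are those with 0.1 FPKM. Pentatricopeptide proteins, which process RNA in plastids and mitochondria, were down in 40 and up in 7 of 48 cases. Their levels were low, as for LOC_Os07g01130, with 5.49, 6.78 and 4.76 FPKM at 29 °C and 1.75, 1.81 and 2.31 FPKM at 45 °C (log2FC -1.48, SE 0.18, limma adjusted p = 7.27e-05). Receptor-like kinases were down in 34 and up in 7 of 46, and loci found by the words disease resistance or resistance protein, or by the NB-ARC or NBS-LRR domains of receptors that sense pathogen effectors, in 18 and 4 of 26. Of those 4, 2 are described as pleiotropic drug resistance proteins, a type of membrane transporter. The S-locus-like kinase LOC_Os01g47900 fell by 1.68 on the log2 scale (SE 0.13), from 6.73 to 7.14 FPKM to 1.79 to 2.43 FPKM.

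Lipid transfer proteins and GDSL lipases, enzymes and carriers of cuticle and surface lipids, were down in 10 and up in 1 of 15, and they included the most abundant annotated genes that fell. The lipid-transfer protein LOC_Os12g02300 measured 1099, 978 and 1166 FPKM at 29 °C and 388, 383 and 313 FPKM at 45 °C (log2FC -1.58, SE 0.23, limma adjusted p = 0.000244). Its homologue LOC_Os11g02350, which has the same description, measured 724, 646 and 728 FPKM and then 300, 260 and 224 FPKM (log2FC -1.43, SE 0.21), and reads shared by the pair could have been split between them. The class held 0.279% to 0.315% of the summed FPKM at 29 °C and 0.0429% to 0.0621% at 45 °C. Cell wall proteins were down in 29 and up in 16 of 48, but their summed level was 927 to 1087 FPKM at 29 °C and 1863 to 2051 FPKM at 45 °C. As a share of the summed FPKM this was 0.152% to 0.171% and 0.142% to 0.169%. The most abundant cell wall member, the family 16 glycosyl hydrolase LOC_Os08g13920, was up-regulated (409.5 to 474 FPKM, then 908 to 1085 FPKM, log2FC 1.13, SE 0.16), although quantile normalization turns its sign (-0.09) and the equal sum ends the call (0.16).

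DNA replication and cell cycle genes were down in 13 and up in 3 of 17 cases. Their summed level was 60.6 to 71.8 FPKM at 29 °C and 58.9 to 73.6 FPKM at 45 °C, ranges that overlap. The kinesin LOC_Os10g36880, a microtubule motor protein, measured 16.1, 17.0 and 13.3 FPKM at 29 °C and 6.401, 7.4 and 6.08 FPKM at 45 °C (log2FC -1.21, SE 0.15, limma adjusted p = 6.31e-05). Another kinesin, LOC_Os01g14090, was up-regulated (1.08 to 1.62 FPKM, then 10.4 to 17.1 FPKM, log2FC 3.22, SE 0.25). Loci found by the word histone were up in 5 and down in 3 of 8, and 1 of those up is described as an acetyltransferase and not as a histone. Rescaled to an equal sum they had 0 calls up and 3 down. Ribosomal proteins were divided, with 8 up and 10 down of 19, and nuclear loci described as S19 or L23 may share reads with near-identical organelle copies.

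RNA recognition and splicing proteins were up in 16 and down in 4 of 21, but rescaling to an equal sum left 2 up and 4 down. The class was dominated by LOC_Os03g46770, with 2219, 1755 and 2305.1 FPKM at 29 °C and 7281, 5298 and 7297 FPKM at 45 °C (log2FC 1.66, SE 0.33, limma adjusted p = 0.00175), a call that ends under quantile normalization (log2FC 0.50) and under the equal sum (0.69). Transporters had 30 up (48.4%) and 29 down (46.8%) of 62, against 58.4% and 34.5% of all annotated loci. Cytochrome P450 enzymes, with 19 up (54.3%) and 13 down (37.1%) of 35, were near those background shares. Rescaled to an equal sum, transporters had 11 calls up and 30 down and cytochrome P450 enzymes 9 up and 14 down. Of 126 loci described as transposon or retrotransposon proteins, 85 (67.5%) were up and 29 down, and with the equal sum 47 were up and 32 down. LOC_Os04g51160, described as an unclassified transposon protein, measured 0.146, 0.230 and 0.254 FPKM at 29 °C and 241, 287 and 378 FPKM at 45 °C (log2FC 9.92, SE 0.33, limma adjusted p = 6.72e-09).

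The label seedling was compared with tissue markers chosen by description. Since the descriptions cover mainly genes the study called as changed, tissue genes that stayed level are largely missing from these markers. The 6 green tissue markers summed to 1224 to 1665 FPKM in the controls and 2505 to 3667 FPKM after heat stress, with 2 up and 2 down. Most of the sum was ferredoxin-1 (LOC_Os08g01380), an electron carrier of photosynthesis, at 956 to 1254 FPKM and then 1861 to 2563 FPKM (log2FC 1.07, SE 0.23, limma adjusted p = 0.00321). That call is lost without the first control (log2FC 0.99) or the first heat-stressed library (0.96), and its sign turns under quantile normalization (-0.42). The small photosystem II protein LOC_Os07g05365 rose from 4.54 to 6.59 FPKM to 144 to 262 FPKM (log2FC 5.13, SE 0.35), whereas the photosystem II W protein LOC_Os05g43310 fell from 79.1 to 94.5 FPKM to 17.2 to 38.4 FPKM (log2FC -1.65, SE 0.24). The only root cap gene with a description (LOC_Os01g73720) was at 0.103 to 0.854 FPKM in the controls and listed at 0 after heat stress. The 4 markers of seed remains, alpha-amylases and glutelins, summed to 19.5 to 20.9 FPKM and then 38.8 to 58.3 FPKM, with 3 up and 1 down. In seedling RNA, fewer cells of a type and less RNA per cell cannot be told apart, and the part of tissue makeup in these results was not tested.

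The deepest losses were in loci without a description. LOC_Os08g24200 measured 159, 81.2 and 305 FPKM in the controls and was listed at 0 in all 3 heat-stressed libraries, and LOC_Os09g15365, with 18.2, 35.5 and 72.8 FPKM, and LOC_Os01g18450, with 27.2, 12.1 and 27.5 FPKM, were listed at 0 in the same way. A listed 0 can be a failed estimate, so no fold is given for them. LOC_Os04g03579 fell from 83.2, 102.3 and 90.2 FPKM to 0.643, 0.518 and 1.34 FPKM (log2FC -6.72, SE 0.33, limma adjusted p = 8.13e-08). LOC_Os09g39070 fell from 60.1, 54.7 and 62.1 FPKM to 0.937, 0.545 and 1.17 FPKM (log2FC -5.96, SE 0.29). In the AP2/ERF list the deepest fall was that of LOC_Os04g47810, described as related to ethylene-responsive proteins, from 7.05 to 7.91 FPKM to 0.149 to 0.402 FPKM (log2FC -4.28, SE 0.26, limma adjusted p = 4.47e-07).

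A locus called in a given direction followed a locus with the same call more often than one that was not called. Locus numbers run along the chromosome, and the next tested locus was up-regulated after 21.5% of the up-regulated loci (899 of 4183), against 12.6% after loci that were not called. For down-regulated loci the shares were 18.3% (682 of 3726) and 11.3%. Overlapping transcripts and genes on opposite strands cannot be told apart, because the sources used here do not state that counting used strand, and their part in these shares was not tested. There were 175 runs of at least 3 up-regulated neighbours, the longest of 8 loci, and the longest run of down-regulated neighbours held 7. A pair of stretches, singled out after their values were seen, held 7 of the 15 most abundant loci at 45 °C. The 6 loci from LOC_Os01g04330 to LOC_Os01g04380 on chromosome 1, 3 of them annotated as hsp20 proteins, were all up-regulated and held 0.0295% to 0.0313% of the summed FPKM at 29 °C and 5.02%, 6.29% and 6.46% at 45 °C. The 9 loci from LOC_Os03g15960 to LOC_Os03g16040 on chromosome 3 held 0.0143% to 0.0156% at 29 °C and 7.12%, 7.66% and 8.31% at 45 °C. In that stretch 5 of 7 tested loci were up-regulated, and LOC_Os03g16000 and LOC_Os03g16010 between them were not called, with 10.2 to 13.3 FPKM and 16.5 to 36.7 FPKM over the 6 libraries. By chromosome, the share of up-regulated loci ranged from 10.6% on chromosome 11 to 15.3% on chromosome 5, and that of down-regulated loci from 9.8% on chromosome 3 to 14.5% on chromosome 11.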

How the data were processed

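The members (3 WT libraries at 45 °C, 3 at 29 °C) and the gene lists were chosen with earlier results of these data known. The authors deposited one table of FPKM for 55986 loci in 12 libraries. Per the methods of the study, reads were filtered with SeqPrep and Sickle, aligned with TopHat (rice genome and loci of the MSU release), and quantified as FPKM with RSEM. The submitters' processing notes list Bowtie 0.12.2 and mm8, a mouse build that cannot be that of rice loci. Further scaling of the libraries is not given in the sources used here, and without counts the depth and its precision are unknown.

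Loci above 0 in at least 3 of 12 libraries were tested (31681, of 55986, with 19165 at 0 in all 12). log2(FPKM + 0.1) was fitted with limma 3.58.1 in R 4.3.3, with 1 mean for each of 4 groups (8 residual degrees of freedom), a mean-variance trend and Benjamini-Hochberg adjustment over all loci tested. The ntl3-1 libraries entered only through the shared spread. A fold change is on the log2(FPKM + 0.1) scale, which understates that of low loci. The test was tried on simulated data, with Python 3.11.15 and scipy 1.17.1 for the exact permutation tests.

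Named loci were the 15 most abundant at 45 °C and the 10 at 29 °C, the 10 largest changes in each direction with at least 20 FPKM in the higher group and no overlap, up to 4 most abundant members of each list with up to 2 in the direction of fewer calls, and loci the study names beside these data. The text gives part of them. A role was given only where the supplement or text of the study describes the locus. None of the loci (0) matched the RefSeq table, so no coordinates or sequences are given, and chromosomes were read from locus names. The alternatives were other constants, filters, scalings, thresholds, WT libraries alone, a replicate block, no trend and leaving out each library.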

Additional observations from a re-analysis of the deposited data

How the results depend on the processing

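Up-regulated genes numbered 4190 and down-regulated genes 3730 on the deposited scale. Rescaling to an equal FPKM sum gave 2073 and 12654, with the shift of -0.77 in the median log2FC, and a constant of 1 FPKM in place of 0.1 gave 3098 and 1742, so that 64.0% of the calls were up-regulations instead of 52.9%. The share of down-regulated loci followed by another was 18.3%, and it became 11.0% with a constant of 1 FPKM and 45.1% with the equal sum. The number of down-regulated genes that could follow differed as well (3730, 1742 and 12654 of 31681 tested). These shares therefore do not compare the clustering between the settings. The counts of up- and down-regulated genes stayed within 1.5 times under the other settings tried, from 3964 to 4460 and from 3399 to 3951 on leaving out 1 library. Under a replicate block the counts were 4165 and 3689. Of 70 class counts, 29 moved by more than 1.5 times with a constant of 1 FPKM, and 29 did so with the equal sum. Deviations of same-numbered WT libraries correlated with r = 0.0862, 0.0234 and -0.0114 (20729 genes), within the -0.161 to 0.122 of differently numbered ones. No shared effect of the replicate number was seen. These values cannot tell whether same-numbered samples were handled together.

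Of 217 named loci, these changed sign: LOC_Os06g13680 (-0.46 with quantile normalization, -0.06 with the equal sum), LOC_Os08g10020 (-0.33 and -0.01), LOC_Os12g17600 (-1.21 and -0.55), LOC_Os03g20550 (-0.04) and LOC_Os05g44100 (-0.03) with the equal sum, LOC_Os02g44630 (-0.08), LOC_Os07g26690 (-0.09), LOC_Os08g13920 (-0.09) and LOC_Os08g01380 (-0.42) with quantile normalization, and LOC_Os01g41710 without the third control (0.01) or the third heat-stressed library (0.08), with a range from -0.24 to 0.08 over the libraries left out. Calls were lost for 58 loci with the equal sum, 38 with quantile normalization and 24 with a constant of 1 FPKM. Calls were gained for 8 loci with the equal sum and for 8 with quantile normalization, 7 of them in each case among the 10 most abundant at 29 °C. The cause was not tested. Depth is unknown, and low levels at 45 °C rest on fewer reads.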
